A study of Mus musculus with 8 samples.

Results

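The insulin receptor and 9 genes that act with it or respond to it were examined in mouse liver: *Insr*, *Irs1*, *Irs2*, *Pik3r1*, *Pik3ca*, *Akt1*, *Akt2*, *Grb14*, *Igfbp1* and *Igfbp2*. These 10 genes were picked by symbol from the 27179 genes of the authors' deposited RNA sequencing table, and each symbol matched 1 row. All 10 had reads, as did 18937 genes of the table in all. The livers came from 4 wild-type and 4 V227A male mice of the C57BL/6NHsd strain, 12 to 14 weeks old and fasted for 6 h. V227A animals are homozygous for alanine in place of a valine that wild-type animals carry in PPARɑ, a nuclear receptor activated in fasting. The substitution was made by base editing of zygotes and traced back to 1 heterozygous founder that was backcrossed to the same strain, so it is present in every tissue and not in hepatocytes alone. The question behind the design is what the substitution does to gene expression in the fasted liver. That comparison is not given here: the columns that hold it are the authors' own results and were not used, and values per library were not analysed here. What follows describes the average level of each gene over the 8 livers, both genotypes together, with no standard deviation and no statement on the genotypes.

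Insulin binds a receptor tyrosine kinase on the hepatocyte surface, which phosphorylates the insulin receptor substrates. These recruit phosphoinositide 3-kinase (PI3K), made of a regulatory and a catalytic subunit, and its lipid product brings the kinase Akt to the membrane. Akt keeps FOXO transcription factors out of the nucleus, and genes that FOXO proteins drive, *Igfbp1* and *Irs2* among them, are repressed by insulin and rise in fasting. *Grb14* encodes an adaptor that binds the active receptor and inhibits it, and *Igfbp1* and *Igfbp2* encode secreted proteins that bind insulin-like growth factors.

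The promoters of 9 of the 10 genes were matched in the RefSeq table of GRCm38.p6, in 15 windows that run from 250 bases before to 50 bases after an annotated start. They were searched on both strands for CAAAACA, the core of the insulin response element that FOXO proteins bind, for the FOXO motif GTAAACA and for the TATA box TATAAA. The core was found for 3 genes, *Igfbp1*, *Irs1* and *Irs2*, in 3 of the 15 windows. It occurs in 6.28% of all 32851 promoter windows of the table. The part before the start of the 3 windows that hold the core is printed on the strand of the gene. *Igfbp1* and *Irs2* are repressed by insulin, and *Irs1* is the paralogue of *Irs2*. The core was not found in the windows of *Igfbp2*, also listed as an insulin-repressed readout. Capitals mark the core, or TGTTTTG where it lies on the opposite strand. The *Igfbp1* sequence is chr11:7197537-7197786 (plus strand), the *Irs2* sequence chr8:11008930-11009179 (minus strand) and the *Irs1* sequence chr1:82291440-82291689 (minus strand).
Igfbp1: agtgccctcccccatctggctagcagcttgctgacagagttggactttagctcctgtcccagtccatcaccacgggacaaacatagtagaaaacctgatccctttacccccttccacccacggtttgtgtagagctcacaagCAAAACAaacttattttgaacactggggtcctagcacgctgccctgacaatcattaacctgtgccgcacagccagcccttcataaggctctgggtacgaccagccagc
Irs2: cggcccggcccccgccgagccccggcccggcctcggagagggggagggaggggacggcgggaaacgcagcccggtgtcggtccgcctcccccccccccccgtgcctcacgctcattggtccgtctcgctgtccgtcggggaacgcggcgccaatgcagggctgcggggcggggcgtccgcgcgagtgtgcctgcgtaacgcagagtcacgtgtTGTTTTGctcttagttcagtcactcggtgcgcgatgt
Irs1: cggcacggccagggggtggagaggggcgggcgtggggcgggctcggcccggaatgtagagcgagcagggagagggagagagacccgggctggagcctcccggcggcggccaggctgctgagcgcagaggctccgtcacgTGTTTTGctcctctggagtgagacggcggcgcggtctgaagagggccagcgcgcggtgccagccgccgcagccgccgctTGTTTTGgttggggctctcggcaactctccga

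In *Igfbp1* the core began 108 bases before the start, on the strand of the gene. GENCODE places the start of *Igfbp1* at 7197782, inside the last bases of the printed sequence. In *Irs2* the core lay on the opposite strand and began 37 bases before the RefSeq start. GENCODE ends *Irs2*, a gene of the minus strand, at 11008458, which is farther downstream, and the core does not lie within 250 bases of that start. *Irs1* held the core at 2 places, both on the opposite strand, 111 and 32 bases before its start. Of the 250 bases, G and C made up 53.2% in *Igfbp1*, 72.8% in *Irs2* and 72.4% in *Irs1*, against a median of 52.4% over all windows. The FOXO motif was found in 1 of the 15 windows, that of *Akt1*, 161 bases before the start on the opposite strand, and in 3.65% of all windows. The TATA box was found in 1 window, 117 bases before the second start of *Pik3r1* on the opposite strand, and in 13.6% of all windows. A match of letters is a description and does not show that a factor binds there, and the absence of one says only that these letters are not in the window.

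**Figure D1:**
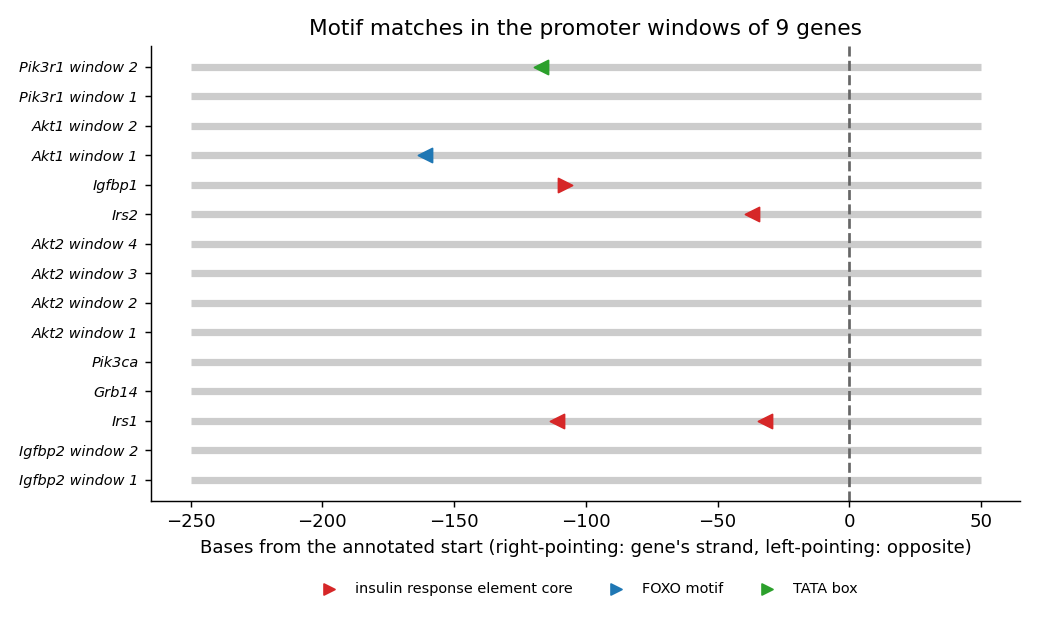
Positions of 3 short motifs in the 15 promoter windows of 9 genes, in bases from the annotated start (dashed line), with arrowheads pointing right for matches on the strand of the gene and left for the opposite strand. Red marks, the insulin response element core, lie in the windows of *Igfbp1*, *Irs2* and *Irs1*, the FOXO motif is marked once in *Akt1* and the TATA box once in *Pik3r1*.

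Levels are given as the authors' average log2 CPM, the read count scaled to a common library size and averaged over the libraries. Genes without reads, 8242 of them, share the lowest value of -3.78. From this value and a prior count of 2 the mean effective library was estimated at 27473997 reads. Depths of single libraries were not analysed here. To compare genes, the average CPM was divided by the length of the longest GENCODE transcript, which gives CPM per kb. The 95% intervals below were computed from estimated read totals over the 8 libraries. They cover counting error only and not the spread between mice, which is unknown here.

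Per kb, the 10 genes ran from above 35.9% to above 99.1% of genes. Of the 10, 8 lay above the median of the 17238 genes with reads and a transcript length, which was 1.58 CPM per kb, and the median of the 10 was 12.1 CPM per kb. *Igfbp2* stood at the top and the substrates *Irs1* and *Irs2* at the bottom, with the receptor, PI3K, Akt and *Grb14* between them. *Igfbp2* alone made up 56.3% of the summed average CPM of the 10 genes, which was 959.2. By log2 CPM, which favours long transcripts, their median was 5.61, against 1.89 for all genes with reads.

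**Figure D2:**
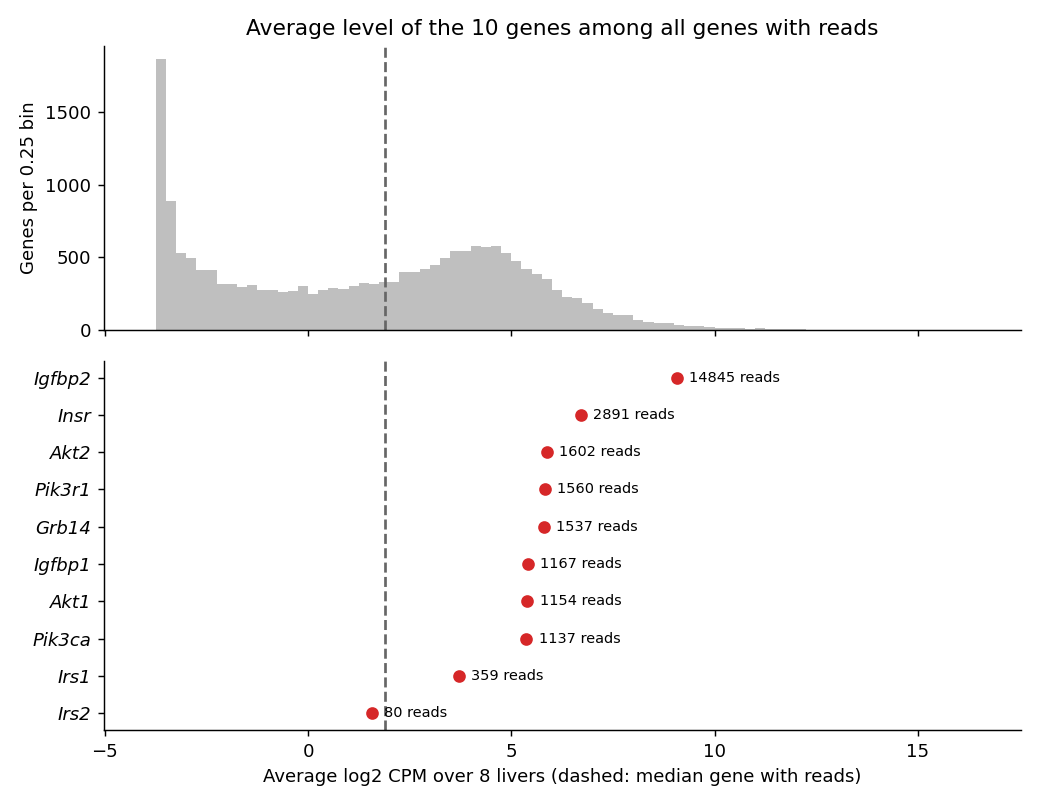
Above, the distribution of the average log2 CPM over the 18937 genes with reads, and below, the average log2 CPM of each of the 10 genes with its estimated reads per library. *Irs2* (1.58) is the only one of the 10 left of the dashed line, which marks the median gene at 1.89, and *Igfbp2* (9.08) lies farthest to the right.

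*Insr*, which encodes the insulin receptor, lies on the minus strand of chromosome 8 (chr8:3122061-3279617, GRCm38, GENCODE vM21). Its average log2 CPM was 6.72, or 105.3 CPM, from an estimated 2891 reads per library. Per kb its level was 11.3 CPM (95% counting interval 11.1 to 11.4), above 80.8% of genes. The count covers the whole gene, so the receptor's splice forms were not separated. *Igf1r*, the receptor for insulin-like growth factor 1 and the closest relative of *Insr*, had an average log2 CPM of 1.88. Per kb, *Insr* was 34.9 times as high as *Igf1r* (95% counting interval 33.2 to 38.3), and 35.6 times as high without the prior count. With the shortest coding transcripts the ratio was 593, but this sets 0.551 kb of *Insr* against 11.409 kb of *Igf1r*, which is also its longest transcript. *Insrr*, an orphan receptor of the same family, had an estimated 1.13 reads per library.

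The substrates link the receptor to PI3K. Per kb, *Irs2* lay well below the median gene of the liver and *Irs1* near it, above 35.9% and 48.6% of genes. *Irs1* (chr1:82233101-82291416, minus strand) had an average log2 CPM of 3.72 from an estimated 359.1 reads per library. *Irs2* (chr8:10984681-11008458, minus strand), whose promoter is printed above, had an average log2 CPM of 1.58 from an estimated 79.95 reads per library. Per kb, *Irs1* stood at 1.44 CPM and *Irs2* at 0.472 CPM, and these were the 2 of the 10 genes below the median gene. *Irs1* was 3.05 times as high as *Irs2* per kb (95% counting interval 2.85 to 3.39). Each gene has 1 transcript in GENCODE, so this ratio does not depend on which GENCODE transcript is used. RefSeq starts *Irs2* farther upstream, and the annotation used in counting is not given in the sources used here. The ratio could also depend on strand, which was not tested. The gene *Gm9747* runs opposite to *Irs1* and shares 2822 exonic bases with it, 30.9% of the *Irs1* exons. No level was found for *Gm9747*. The libraries were stranded, but the strand setting of the read counting is not given in the sources used here. For *Irs2* the opposite gene *9530052E02Rik* covers 2.56% of its exons and had an average log2 CPM of -2.58. The related substrates were lower still, with an estimated 4.34 reads per library for *Irs3* and 0 for *Irs4*. A count of 0 allows up to 3 reads over the 8 libraries, or 0.0136 CPM.

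Of the PI3K subunits, *Pik3r1* encodes the regulatory subunit alpha and *Pik3ca* the catalytic subunit alpha. *Pik3r1* (chr13:101680563-101768217, minus strand) had an average log2 CPM of 5.83 and an estimated 1560 reads per library. *Pik3ca* (chr3:32397671-32468486, plus strand) had 5.37 on the same scale and an estimated 1137 reads per library. Per kb the levels were 7.99 CPM and 4.65 CPM, so the regulatory subunit was 1.72 times as high (95% counting interval 1.67 to 1.77). This ratio was 12.6 with the median and 15.5 with the shortest coding transcript. Within the catalytic family, *Pik3ca* was 2.85 times as high per kb as *Pik3cb* (2.73 to 2.99), which stood at 1.63 CPM per kb, but the ratio was 0.401 with the shortest coding transcript. *Pik3cd* and *Pik3cg*, the subunits best known from blood cells, stood at 0.673 and 0.0631 CPM per kb. Within the regulatory family *Pik3r1* and *Pik3r2* were close, with a ratio of 0.959 per kb (95% counting interval 0.931 to 0.991) and of 2.35 with the median transcript, while *Pik3r3* stood at 0.302 CPM per kb.

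The kinases *Akt1* and *Akt2* lay close together. *Akt1* (chr12:112653821-112674884, minus strand) had an average log2 CPM of 5.40 from an estimated 1154 reads per library. *Akt2* (chr7:27591552-27640826, plus strand), the form most tied to insulin action in liver, had 5.87 from an estimated 1602 reads. Per kb, *Akt1* stood at 15.6 CPM and *Akt2* at 12.8 CPM, a ratio of *Akt2* to *Akt1* of 0.821 (95% counting interval 0.80 to 0.844). Which of the pair was higher depended on the transcript length used: with the median transcript the ratio was 1.16. The coding sequences of *Akt1* and *Akt2* hold 480 and 481 codons before the stop and were identical at 77.7% of aligned bases. Despite this likeness *Akt1* shared 0 of its 2641 windows of 50 bases with any other gene's transcripts. *Akt2* shared 717 of 4495, all with the pseudogene *Akt2-ps*, so reads from these stretches could have been lost or split in counting.

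*Grb14* (chr2:64912476-65024987, minus strand) had an average log2 CPM of 5.81 and an estimated 1537 reads per library. Per kb it stood at 20.0 CPM (95% counting interval 19.6 to 20.4), the third of the 10 genes. Its longest transcript is not coding, and with the longest coding transcript the level was 28.2 CPM per kb. Its relatives *Grb7* and *Grb10* fell on either side: *Grb7* stood at 41.5 CPM per kb, 2.07 times as high as *Grb14* (2.03 to 2.12), and *Grb14* was 50.9 times as high as *Grb10* (47.8 to 58.2), which stood at 0.394 CPM per kb. The ratio of *Grb7* to *Grb14* was 3.79 with merged exons and 0.818 with the median transcript, so their order was not fixed. The ratio of *Grb14* to *Grb10* ran from 18.4 with the shortest to 71.6 with the longest coding transcript.

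*Igfbp1* and *Igfbp2* are made and secreted by hepatocytes. *Igfbp1* (chr11:7197782-7202546, plus strand), the classic insulin-repressed readout, had an average log2 CPM of 5.41 and an estimated 1167 reads per library. *Igfbp2* (chr1:72824503-72852474, plus strand) had 9.08 on the same scale and an estimated 14845 reads per library. Per kb these levels were 27.9 CPM (27.3 to 28.4) and 413.5 CPM (411.1 to 415.8), above 90.6% and 99.1% of genes. *Igfbp2* was 14.8 times as high as *Igfbp1* per kb (95% counting interval 14.5 to 15.2). Neither shared a window of 50 bases with another gene. Of the other binding proteins, *Igfbp4* was higher than *Igfbp2*, by 1.33 times per kb (1.32 to 1.34) with the longest transcripts, 5.05 times with the median and 7.89 times with the shortest coding ones. *Igfbp6* was the lowest of them, at 0.760 CPM per kb. *Igfbp7*, *Igfbp3* and *Igfbp5* stood at 30.1, 7.81 and 1.49 CPM per kb.

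Ordered by CPM per kb of the longest transcript, the 10 genes ran from *Igfbp2* through *Igfbp1*, *Grb14*, *Akt1*, *Akt2*, *Insr*, *Pik3r1* and *Pik3ca* to *Irs1* and *Irs2*. The counting intervals of neighbours in this order did not overlap. Whether neighbours differ beyond the spread between mice cannot be said from an average over all livers. With all exons of a gene merged, 7 of the 10 kept their place, and with the longest coding transcript 8 did. *Igfbp2* held the first place and *Pik3ca*, *Irs1* and *Irs2* the last 3 places with each of the 5 lengths tried. *Igfbp1*, which has 1 annotated transcript, fell to place 7 with the median and the shortest coding transcripts, where other genes have higher values.

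**Figure D3:**
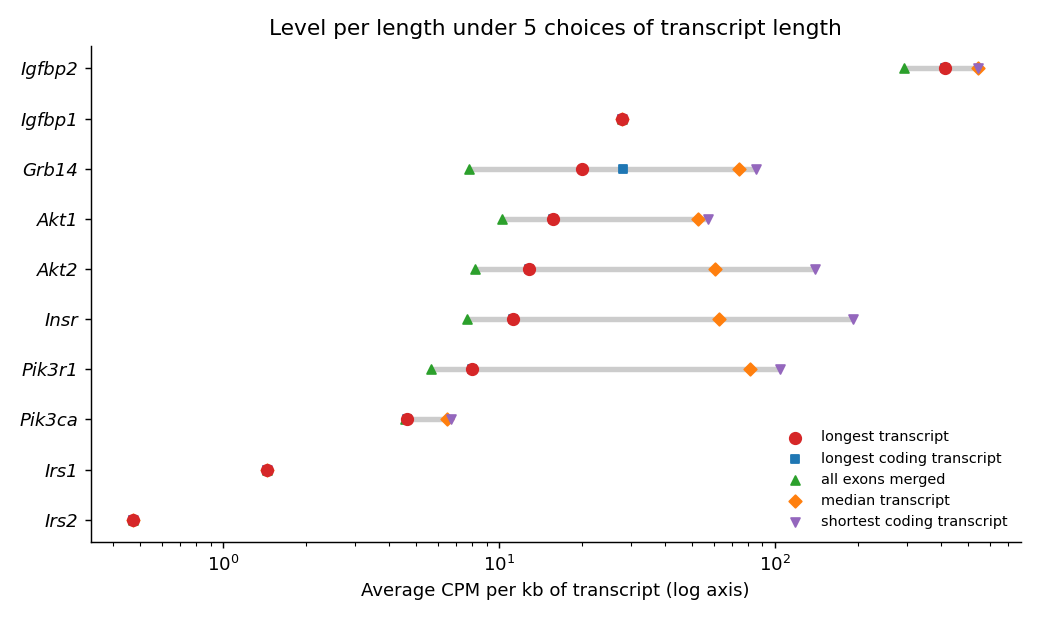
Average CPM per kb (log axis) of the 10 genes with 5 choices of transcript length, with a grey bar from the lowest to the highest value. *Igfbp2*, *Pik3ca*, *Irs1* and *Irs2* keep their places at the ends, while the ranges of *Grb14*, *Akt1*, *Akt2*, *Insr* and *Pik3r1* overlap and pass the single value of *Igfbp1*, 27.9.

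The other genes of the pathway were listed by role, 74 in all, of which 71 had reads and 63 reached 1 CPM. Among all genes, 11711 reached 1 CPM, which is 61.8% of those with reads. Of the 71 pathway genes with reads, 49 lay above the median gene of the liver per kb, and the median of the 71 was 5.16 CPM per kb. Among receptors and ligands, 5 of 7 had reads and 3 reached 1 CPM. *Igf1*, the growth factor that liver secretes, was highest at 83.2 CPM per kb, and *Ins1* and *Ins2*, the insulin genes of the pancreas, had 0 reads. Of the adaptors and substrates 8 of 9 had reads and 7 reached 1 CPM. Those with reads ran from *Irs3* at 0.0988 to *Grb2*, which couples receptors to Ras, at 16.4 CPM per kb. Of the inhibitors 8 of 9 reached 1 CPM. They ran from *Socs1* at 0.0951 to *Ahsg*, a secreted liver glycoprotein that can inhibit the receptor, at 6257 CPM per kb.

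Further down the pathway most listed genes reached 1 CPM, as did 61.8% of all genes with reads. Of the PI3K subunits 7 of 8 reached 1 CPM, with *Pik3r2* highest at 8.33 CPM per kb and *Pik3cg* lowest. Of the lipid phosphatases, which remove the product of PI3K, 4 of 5 did, and *Inpp4b* was lowest with an estimated 1.74 reads per library. All 17 genes listed around the kinases PDK1, Akt and mTOR reached 1 CPM, and *Gsk3a*, a kinase that Akt inhibits, was highest at 34.3 CPM per kb. Of the targets and readouts 12 of 13 reached 1 CPM. *Pck1*, the gluconeogenic enzyme, was highest at 1393 CPM per kb, 49.9 times the level of *Igfbp1* (49.0 to 51.0). That ratio was 39.7 with merged exons and 70.3 with the median transcript. *Foxo6* was lowest with an estimated 1.24 reads per library. Of the other FOXO genes, *Foxo1* stood at 10.4, *Foxo4* at 10.7 and *Foxo3* at 1.11 CPM per kb. *Foxo1* was 9.41 times as high as *Foxo3* (9.03 to 9.99), but 3.48 times with the median transcript and 0.706 times with the shortest coding transcript. Of the other binding proteins 5 of 6 reached 1 CPM.

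**Figure D4:**
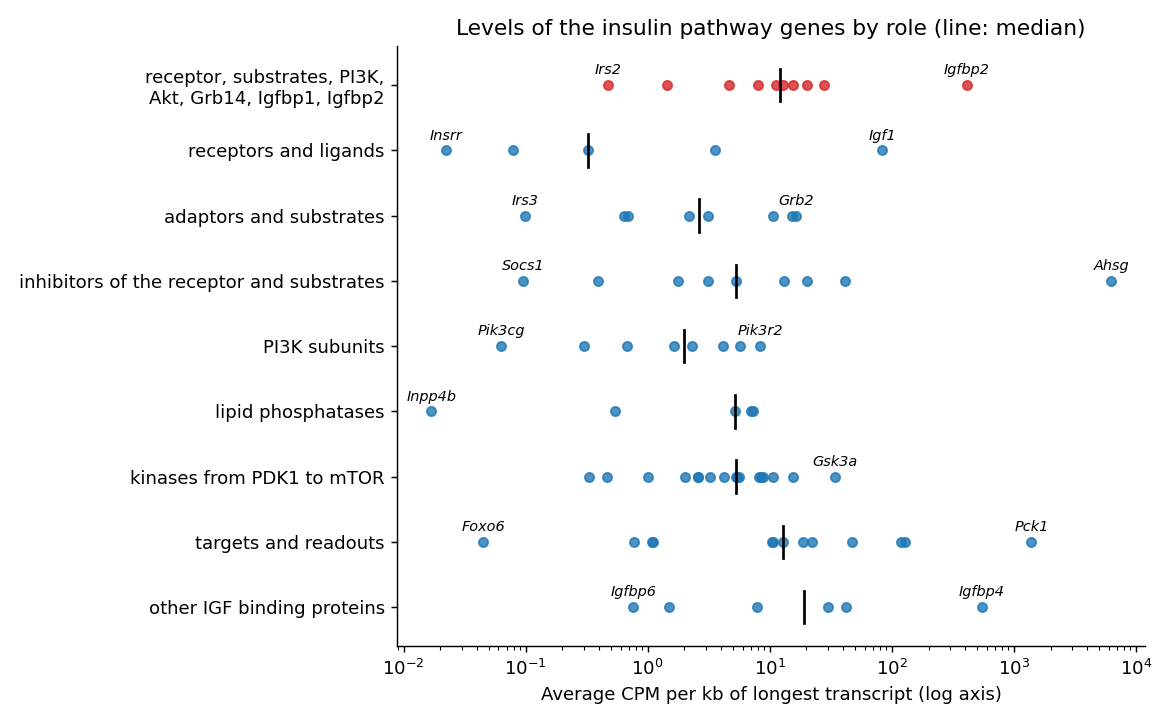
Average CPM per kb of the longest transcript (log axis) for the 10 genes (red) and for the other pathway genes with reads by role (blue), with genes at the ends of the rows named and a black line at its median. The median of the 10 genes is 12.1 CPM per kb, and the row of receptors and ligands has the lowest median, 0.322.

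The label liver was checked against marker genes. All 6 hepatocyte markers had at least 1462 CPM, led by *Alb*, and their summed average level was 103731 CPM. Summed levels were 112.3 CPM for 5 Kupffer cell markers, 117.7 CPM for 5 endothelial markers, 167.6 CPM for 5 stellate cell markers and 35.6 CPM for 5 cholangiocyte markers. They were 2.0 CPM for 4 lymphocyte markers, 1.05 CPM for 5 adipose markers and 2.61 CPM for 4 muscle markers. Per kb, the hepatocyte markers ran from *Cps1* at 332.4 to *Alb* at 34208 CPM, the Kupffer cell markers from *Adgre1* at 1.47 to *Clec4f* at 33.2, and the endothelial markers from *Kdr* at 1.94 to *Clec4g* at 26.3. On the same scale, stellate cell markers ran from *Lrat* at 1.46 to *Dcn* at 21.2 and cholangiocyte markers from *Krt7* at 0.321 to *Spp1* at 15.9. The other ranges were *Cd3e* at 0.219 to *Nkg7* at 0.451 CPM per kb for lymphocytes, *Lep* at 0.0252 to *Adipoq* at 0.25 for adipose tissue and *Myh4* at 0.0605 to *Mylpf* at 1.45 for muscle. Of 6 pancreas markers 5 had 0 reads, *Ins1*, *Ins2*, *Gcg*, *Prss2* and *Pnlip*, and *Cela3b* had an estimated 1.02 reads over all libraries. Several of the 10 genes are used by every cell type, and the part of each cell type in their levels was not tested. In whole liver, fewer cells of a type and less RNA per cell cannot be told apart.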

How the data were processed

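RNA from whole liver of 4 wild-type and 4 V227A mice was made into stranded poly-A libraries and sequenced in pairs. Per the authors, Trimmomatic was used for trimming, RNA STAR for alignment to GRCm38, featureCounts for counting and edgeR for the comparison of genotypes. Tool versions, annotation, strand setting and filters are not given in the sources used here. The authors' deposited table holds, for each gene, 1 average log2 CPM over all libraries, which was used, and 4 columns of their own comparison (log2 fold change, F, p-value and adjusted p-value), which were not. It has 0 columns of values per library, so no test was run. The 10 genes and the gene lists were chosen with earlier results of these data known. Named genes were the 10, their paralogues, the highest and lowest of each list and members without reads. Some of these are not reported here. *Foxo1*, *Foxo3* and *Foxo4* were added after their values were seen. Promoter sequences are those of RefSeq on GRCm38.p6.

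Reads per library were estimated from the lowest average log2 CPM with a prior count of 2. Of 2378 genes with an estimated 1 to 5 reads in total, 99.9% lay within 0.1 of a whole read, and the lowest total was 0.984. With a prior count of 1 it would be 0.492, which is not a whole read. Transcript lengths, coordinates and coding sequences came from GENCODE vM21 (GRCm38), matched by Ensembl identifier. Intervals are exact Poisson intervals for levels and Clopper-Pearson intervals for ratios, at 95%. They rest on estimated read totals without the prior count, while the levels and ratios themselves include it. Protein sequences were not analysed here. Python 3.11.15, pandas 2.3.3, numpy 2.4.6, scipy 1.17.1, biopython 1.88 and matplotlib 3.10.9 were used.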

Additional observations from a re-analysis of the deposited data

How the results depend on the processing

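The average over all livers sets the main limit: no spread between mice, no genotype and no left-out library could be examined. No paired analysis was possible because no result comes from a test and the values carry no replicate number. By CPM, the median of the 10 genes lay above 87.2% of genes with reads, above 86.7% of those with a symbol and above 79.2% of those at 1 CPM or more. Transcript length moved more. Against the longest transcript, 6 of the 10 genes kept their place with the median transcript and 4 with the shortest coding transcript. With all exons merged the ratio per kb was 0.797 for *Akt2* over *Akt1*, 1.24 for *Pik3r1* over *Pik3ca* and 10.5 for *Igfbp2* over *Igfbp1*. With the median transcript these ratios were 1.16, 12.6 and 19.5. With the shortest coding transcript they were 2.45, 15.5 and 19.5, and *Insr* over *Igf1r* was 593. The order of *Akt1* and *Akt2* thus turned with 2 of the lengths. The median transcripts of *Pik3r1*, *Akt2* and *Akt1* were 0.701, 0.962 and 0.803 kb long, against 7.113, 4.544 and 2.69 kb for their longest. The median transcript of *Insr* was 1.68 kb, and with median transcripts *Insr* over *Igf1r* was 34.1. The value of 593 came with a coding transcript of *Insr* of 0.551 kb. The ratio of *Irs1* to *Irs2* was 3.05 with each length and 3.11 without the prior count. The longest coding transcript was chosen after seeing the data and left these 5 ratios as they were. The count of other pathway genes present was 71 at 0.1 CPM and 47 at 10 CPM, against 63. The count of genes with each motif was the same in the 250 bases before the start alone. With prior counts of 1 and 0.25 the estimated reads would fall in proportion to the prior count.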

Other observations

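*Igfbp1* and *Igfbp2* each have another IGF binding protein gene next to them that points towards them. The positions of the other members of the family were not examined. *Igfbp1* and *Igfbp3* (chr11:7206086-7213923, minus strand) are 3539 bases apart with 0 coding genes between them, and *Igfbp2* and *Igfbp5* (chr1:72857932-72874884, minus strand) are 5457 bases apart with 0 between them. The pairs differed in their levels: *Igfbp1* was 3.57 times as high per kb as *Igfbp3* (95% counting interval 3.45 to 3.72), whereas *Igfbp2* was 277.8 times as high as *Igfbp5* (267.7 to 293.0). With merged exons these ratios were 4.62 and 196.6, and with the shortest coding transcript 2.52 and 366.4.

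Over aligned bases, identity of coding sequences between paralogues was 65.7% for *Irs1* and *Irs2*, 67.2% for *Insr* and *Igf1r*, 64.9% for *Grb14* and *Grb10*, 61.5% for *Grb14* and *Grb7* and 58.6% for *Igfbp1* and *Igfbp2*. The unrelated pair *Pik3r1* and *Pik3ca*, aligned in the same way, gave 60.6%, which was above the value for *Igfbp1* and *Igfbp2*. Over the length of the shorter sequence the paralogues gave 61.1%, 65.5%, 63.6%, 59.4% and 57.7% in the same order, and the unrelated pair 59.0%. These alignments were chosen after the data were seen. Between *Irs1* and *Irs2*, as between *Igfbp1* and *Igfbp2*, 0 windows of 50 bases were shared.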
